A study of Homo sapiens with 15 samples.

Results

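The hexosamine pathway turns fructose-6-phosphate and glutamine into UDP-GlcNAc, the activated sugar from which N-glycans, O-GlcNAc, hyaluronan and several other glycans are built. GFPT1 and GFPT2 are isoenzymes of its first and rate-limiting step, GNPNAT1 acetylates the product, PGM3 moves its phosphate, UAP1 joins it to UTP to give UDP-GlcNAc, and OGT transfers the GlcNAc onto serine and threonine residues of nuclear and cytoplasmic proteins. GFPT2 is known for its high expression in mesenchymal-type tumour cells. The 6 genes GFPT1, GFPT2, GNPNAT1, PGM3, UAP1 and OGT were taken by symbol from the deposited count table of MDA-MB-231 cells, and all 6 were found among its 18858 genes. GFPT2 was picked because it rose in the knockdown of both YAP and TAZ, so its levels in the siYAP+TAZ and siControl libraries are given as a description without a test, while the other 5 genes were tested in every comparison.

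MDA-MB-231 is an established human breast adenocarcinoma line of wild-type genotype, and every group came from this line, so the groups speak for a single line. RNA was measured in 5 groups of 3 libraries. Control cells were not transfected, siControl cells received a non-targeting siRNA, siYAP and siTAZ cells received an siRNA pool against YAP1 or against WWTR1 (the gene of TAZ), and siYAP+TAZ cells received a mixture of both pools. Knockdown lasted 48 h and the cells then spent 5 to 6 h on gelatin before RNA was extracted. YAP and TAZ are transcriptional co-activators of the Hippo pathway, and the study asked how their loss bears on invadopodia, the matrix-degrading protrusions of invasive cells. Each siRNA was used at a fixed final concentration, and whether the total siRNA load of siControl was matched to that of the mixture is not given in the sources used here. The sources used here mention separate sets of experiments without saying which libraries form a set, so p-values measure the spread between these libraries.

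The siRNA sense strands are shown because every comparison rests on them, and because a match to a pathway gene would have changed how that gene can be read. They were taken from the study's oligonucleotide list and are printed 5′ to 3′ in lower case.
YAP1 oligo 1: gcaccuaucacucucgaga
YAP1 oligo 2: gaacauagaaggagaggag
YAP1 oligo 3: ccaccaagcuagauaaaga
YAP1 oligo 4: ggucagagauacuucuuaa
WWTR1 oligo 1: aagccuagcucguggcgga
WWTR1 oligo 2: aggaacaaacguugacuua
WWTR1 oligo 3: ggacaaacacccaugaaca
WWTR1 oligo 4: gacaugagauccaucacua
Non-targeting oligo: ugguuuacaugucgacuaa
Each YAP1 oligo was found, over all of its 19 bases, in 8 to 10 of the annotated YAP1 transcripts, and each WWTR1 oligo in 6 or 7 WWTR1 transcripts. None of the 9 oligos matched any transcript of the 6 pathway genes over its whole length. The study's methods name a non-targeting pool, of which its list gives only the sequence printed, so any other members were not searched. Partial matches were not searched.

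The promoters of GFPT2 and UAP1 are shown because these genes had the largest differences of the 6, in opposite directions. The 250 bases before a RefSeq transcript start were read from GRCh38.p14 on the strand of the gene, at chr5:180353337-180353586 (minus strand) for GFPT2 and at chr1:162561281-162561530 (plus strand, before the most upstream of 3 starts) for UAP1. Capitals mark GGGCGG, the GC-box letters bound by SP and KLF factors, on either strand.
GFPT2: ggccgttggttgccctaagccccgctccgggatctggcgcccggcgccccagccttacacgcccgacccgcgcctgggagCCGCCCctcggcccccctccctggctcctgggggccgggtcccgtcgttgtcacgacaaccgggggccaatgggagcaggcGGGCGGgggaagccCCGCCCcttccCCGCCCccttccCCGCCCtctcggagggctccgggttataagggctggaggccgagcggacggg
UAP1: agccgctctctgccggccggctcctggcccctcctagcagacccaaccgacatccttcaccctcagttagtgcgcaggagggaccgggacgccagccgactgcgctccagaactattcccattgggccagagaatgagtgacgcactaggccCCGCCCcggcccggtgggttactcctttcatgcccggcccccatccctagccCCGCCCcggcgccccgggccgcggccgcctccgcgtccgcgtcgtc
The GFPT2 window held 5 GC boxes and the UAP1 windows 2 (the one printed), 4 and 3. Those of the other members held 7 (GNPNAT1), 4 (GFPT1), 1 and 2 (PGM3) and 1 (OGT), so GC boxes did not set GFPT2 and UAP1 apart. Over 35116 RefSeq promoter windows of the same length, 42.6% held the GC box at least once. The core letters GGAATG of TEAD factors, the DNA-binding partners of YAP and TAZ, and the letters TGANTCA of AP-1 were in none of the 9 windows of the 6 genes on either strand, against 11.9% and 6.57% of all windows. These windows cover no distal element, and a match or its absence describes letters and not binding.

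YAP1 stood between 4202 and 4431 normalized counts in siControl, and in siYAP at 1013, 2764 and 761 in libraries 18, 23 and 28. Normalized counts are reads scaled by TMM to the mean library. In siYAP+TAZ YAP1 was between 1796 and 2240. WWTR1 was between 1579 and 1995 in siControl, between 254 and 828 in siTAZ, and between 1123 and 1284 in siYAP+TAZ. Library 23 of siYAP therefore kept more YAP1 than the other siYAP libraries, and every siYAP+TAZ library kept more WWTR1 than any siTAZ library. By edgeR, WWTR1 in siTAZ was called against siControl (log2 fold change -1.74, adjusted p = 0.0187). YAP1 in siYAP (-1.51, adjusted p = 0.0992) and in siYAP+TAZ (-1.06, adjusted p = 0.0723) was not called. WWTR1 in siYAP+TAZ (-0.62, adjusted p = 0.199) was not called either, although all these libraries lay below siControl. A gene that was not called can thus still have changed. Of the markers of the line, VIM, CD44, AXL and EGFR each had at least 9333 normalized counts in every library and PGR at most 8.32, whereas GATA3, a luminal factor listed as a marker that should be low, was at 424 to 680. AXL was lower in siYAP+TAZ than in siControl (log2 fold change -0.51, adjusted p = 0.000199), and the other 3 present markers were not called there. Total counts lay between 18696737 and 30107312. Libraries carry running numbers, and each run of 16 to 20, 21 to 25 and 26 to 30 holds 1 library of each group. What a run stands for is not given in the sources used here, and values within runs are given where they matter.

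GFPT2, the inducible isoenzyme of the first step (chr5:180300698-180353336, minus strand), had a higher mean after each knockdown than in either control. It had 1142, 1084 and 1539 normalized counts in siControl and 2413, 2525 and 3111 in siYAP+TAZ. The groups did not overlap, and the log2 fold change was 1.10 (SE 0.28), a level 2.14-fold that of siControl. Such separation is common with 3 libraries per group, since 18.2% of all genes lay wholly below siControl in siYAP+TAZ and 10.2% in siTAZ. The share of genes that lay wholly above is not reported here. In siTAZ GFPT2 stood at 1747, 2906 and 2711, also above every siControl library, with a log2 fold change of 0.97. In siYAP it stood at 1318, 1658 and 2339, which overlapped siControl, with a log2 fold change of 0.50. These 3 values are the contrast that chose the gene or share its siControl libraries, and they are a description. In bulk RNA a change in the mean level cannot be told apart from a change in the share of cells that express a gene.

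The untransfected Control libraries were not used to choose GFPT2, so the single knockdowns could be tested against them. GFPT2 had 944, 964 and 1587 normalized counts in Control. The siTAZ libraries were all above these, with a log2 fold change of 1.08 (SE 0.28, 95% interval 0.46 to 1.70), but the adjusted p was 0.0622 and the gene was not called. The call turned on the setting, since the adjusted p was at most 0.05 in 7 of 9 alternatives to the fit that kept all libraries of both groups, DESeq2 (0.00874) and limma-voom (0.0212) among them, and ranged from 0.00215 to 0.161. The lowest came with the run of library numbers as a block, and within runs the log2 differences were 0.89, 1.59 and 0.77. Leaving out Control library 26 (0.0246) or siTAZ library 19 (0.0239) also gave a call, and leaving out any of the other 4 gave none, with adjusted p-values up to 0.252. For siYAP against Control the log2 fold change was 0.61 (95% interval -0.01 to 1.22, adjusted p = 0.397). Without siYAP library 23, which kept the most YAP1, GFPT2 did not pass either (0.66, adjusted p = 0.463). GFPT2 in siYAP and siTAZ differed by -0.47 on the log2 scale (95% interval -1.08 to 0.14, adjusted p = 0.507). It was lower in siYAP within each run of library numbers, but no alternative called the difference (lowest adjusted p 0.0994). These data thus do not separate the effects of the single knockdowns.

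**Figure D1:**
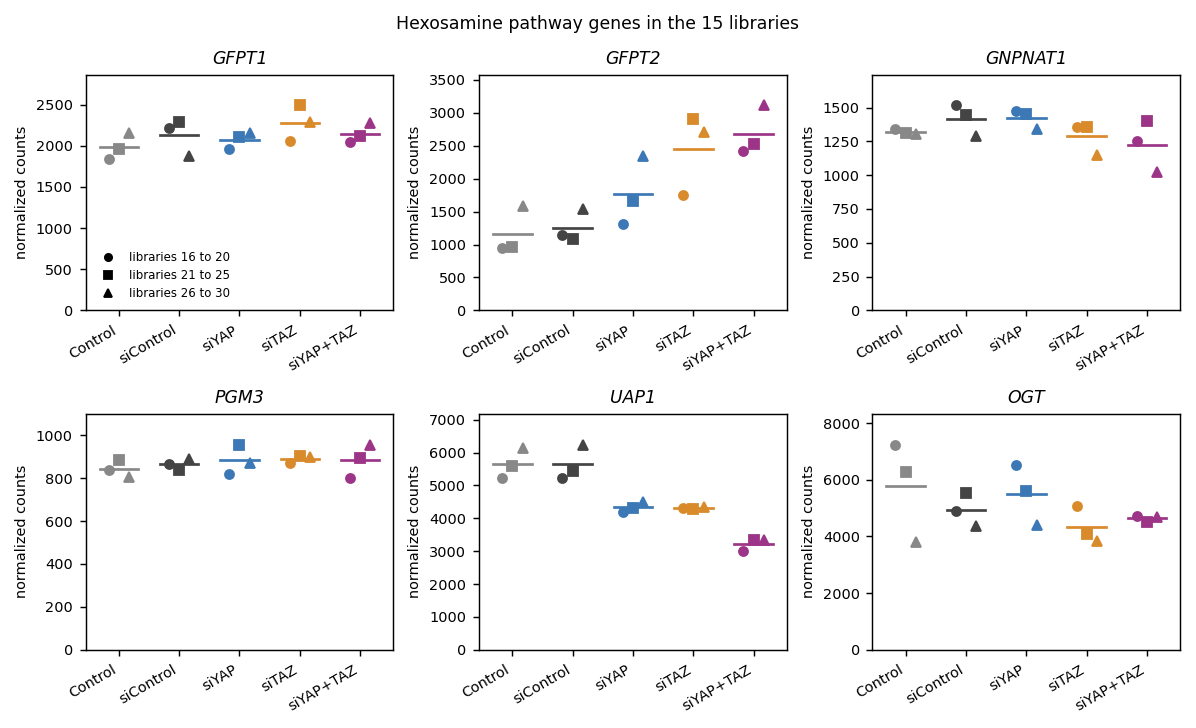
Normalized counts of the 6 hexosamine pathway genes (vertical axes, linear, from 0) in the 5 groups (horizontal axes). Each point is a library, its shape gives the run of library numbers, and bars are group means of 3 libraries. The GFPT2 means run from 1165 in Control to 2683 in siYAP+TAZ, those of UAP1 from 5664 to 3225, and the other 4 genes overlap between siControl and each knockdown.

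The order of GFPT2 group means was Control (1165 ± 366), siControl (1255 ± 248), siYAP (1772 ± 520), siTAZ (2455 ± 621) and siYAP+TAZ (2683 ± 375; all SD, n = 3), and each group overlapped its neighbours in that order. Part of the spread followed the run of library numbers, since the library numbered 26 to 30 was the highest of its group in every group but siTAZ. Within runs the difference between siYAP+TAZ and siControl on the log2 scale was 1.08, 1.22 and 1.02 for libraries 16 to 20, 21 to 25 and 26 to 30. The same within-run differences were 0.61, 1.42 and 0.82 for siTAZ and 0.21, 0.61 and 0.60 for siYAP. siYAP+TAZ was above siTAZ by 0.47 and 0.20 in the first and last runs and below it by 0.20 in the middle run. On the log2 scale siYAP+TAZ exceeded siTAZ by 0.13 over all libraries (95% interval -0.47 to 0.73, and -0.07 to 0.28 without a library), which is a description.

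GFPT1, the other isoenzyme (chr2:69319780-69387250, minus strand), did not share this pattern. It had 2220, 2284 and 1873 normalized counts in siControl, 2046, 2118 and 2280 in siYAP+TAZ, between 1958 and 2150 in siYAP and between 2058 and 2492 in siTAZ, and all of these ranges overlapped. The log2 fold change in siYAP+TAZ against siControl was 0.02, with a 95% interval of -0.17 to 0.20 and an adjusted p of 0.934. The interval leaves room for a change of at most 0.20 on that scale. Its largest value in a comparison with either control was 0.20 in siTAZ against Control, with an adjusted p of 0.232. The genes share no stretch of 50 bases in the GENCODE 44 transcripts, so reads of that length could not have been split between them.

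Levels were compared between the isoenzymes per length, as CPM (reads scaled to the TMM-adjusted library size) divided by the length of the canonical transcript in kilobases, which gives RPKM. In siControl GFPT2 stood at 17.5 ± 3.46 and GFPT1 at 10.4 ± 1.08 (SD, n = 3). GFPT2 made up 59.5%, 57.5% and 70.1% of the sum of both in the siControl libraries and 77.1%, 77.3% and 79.6% in siYAP+TAZ. It made up 65.8% to 75.6% in siYAP, 70.8% to 77.2% in siTAZ and 58.4% to 67.8% in Control. The share was thus higher in each siYAP+TAZ library than in any siControl or Control library, while siYAP and siControl overlapped. The share depends on the length used, and with the union of all annotated exons the siControl mean was 52.3% and the siYAP+TAZ mean 69.9%. The share contains GFPT2 and is likewise a description.

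**Figure D2:**
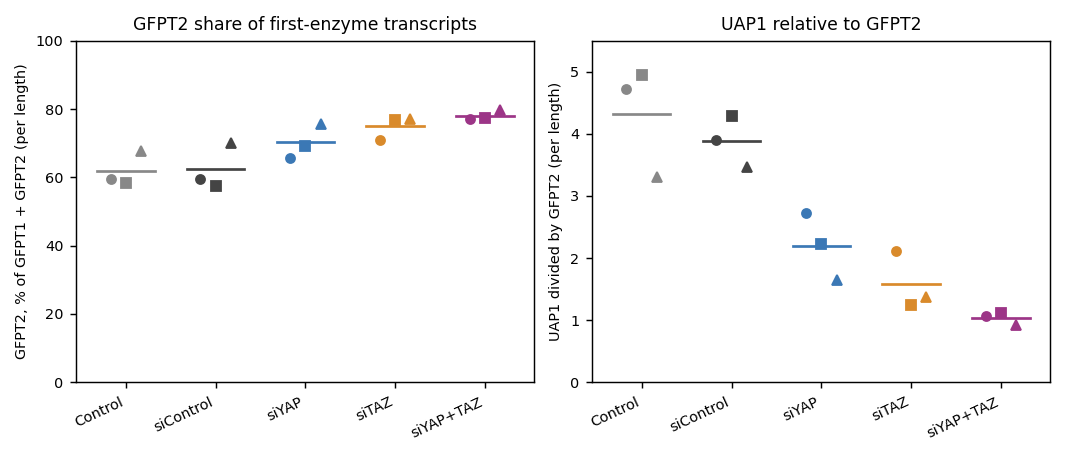
Left, GFPT2 as a percent of GFPT1 plus GFPT2, per transcript length. Right, UAP1 divided by GFPT2, per transcript length. Points are libraries, with shapes for the runs of library numbers (circles 16 to 20, squares 21 to 25, triangles 26 to 30), and bars are group means of 3 libraries. The share is above 77% in all siYAP+TAZ libraries, and the ratio falls from a mean of 3.88 in siControl to 1.03 in siYAP+TAZ.

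GNPNAT1, the acetyltransferase of the second step (chr14:52775193-52791668, minus strand), had 1516, 1444 and 1286 normalized counts in siControl and 1250, 1400 and 1027 in siYAP+TAZ. The siYAP+TAZ libraries were lower on average but overlapped siControl. The log2 fold change was -0.21 (SE 0.10, 95% interval -0.42 to -0.0013), with an adjusted p of 0.162, and it was called neither here nor in the other comparisons by the fit without a block. The value depended on the library left out. It was -0.31 without siYAP+TAZ library 25 (adjusted p = 0.0485) and -0.09 without library 30. Within runs of library numbers the differences were -0.28, -0.05 and -0.33, and with the run as a block GNPNAT1 was called against siControl (adjusted p = 0.0212) and against siYAP (adjusted p = 0.0304). An opposite-strand gene covers 35.6% of its exonic bases, and whether the counting used strand is not given in the sources used here, so reads of the pair may not be told apart.

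PGM3, the phosphoglucomutase of the third step (chr6:83147324-83193936, minus strand), kept between 803 and 957 normalized counts in all 15 libraries. It had 867, 840 and 888 in siControl, 803, 894 and 955 in siYAP+TAZ, 822, 957 and 872 in siYAP and 873, 902 and 898 in siTAZ. The log2 fold changes against siControl were 0.03 in siYAP+TAZ, likewise 0.03 in siYAP, and 0.04 in siTAZ, with intervals inside -0.14 to 0.22 and adjusted p-values from 0.83 to 0.944. Exons of DOP1A on the other strand cover 7.03% of its exonic bases.

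UAP1, the pyrophosphorylase that completes UDP-GlcNAc (chr1:162561722-162601240, plus strand), fell in every knockdown and fell further when both factors were targeted. It had 5238, 5603 and 6152 normalized counts in Control, 5227, 5446 and 6242 in siControl, 4206, 4319 and 4498 in siYAP, 4316, 4269 and 4357 in siTAZ and 3010, 3330 and 3335 in siYAP+TAZ. All siYAP and siTAZ libraries were below all control libraries, and all siYAP+TAZ libraries were below those in turn. Groups that do not overlap, with the knockdown lower, were found for 18.2% of all genes in siYAP+TAZ against siControl, 9.86% in siYAP and 10.2% in siTAZ. No other gene overlaps the exons of UAP1 on either strand.

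In siYAP+TAZ against siControl the log2 fold change of UAP1 was -0.81 (SE 0.08, 95% interval -0.97 to -0.64), which is 57.2% of the siControl mean, with an adjusted p of 1.89e-06. It was called under all 9 alternatives with every library and without each library in turn (log2 fold change -0.85 to -0.73). It was the 1 member called of 5 tested, where 18.4% of all genes were called, 8.39% as lower. In siYAP the log2 fold change was -0.38 (adjusted p = 0.0238) and in siTAZ -0.39 (adjusted p = 0.0126). UAP1 was again the 1 of 5 members called, with 0.933% of all genes called in siYAP (0.456% as lower) and 2.03% in siTAZ (0.695% as lower). The siYAP call was lost without any of the 6 libraries of the comparison (log2 fold change -0.42 to -0.30, adjusted p 0.0558 to 0.113), the incompletely silenced library 23 included (-0.36, 0.0761), and with only the groups compared in the fit (0.0626). The siTAZ call was lost without siControl library 27 (0.0587) or siTAZ library 24 (0.0707).

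Against the untransfected Control the log2 fold changes of UAP1 were -0.38 in siYAP (adjusted p = 0.0169), -0.39 in siTAZ (adjusted p = 0.00955) and -0.81 in siYAP+TAZ (adjusted p = 1.53e-06). It was 1 of 6 members called in the single knockdowns and 1 of 5 in siYAP+TAZ, where 1.46%, 3.40% and 19.4% of all genes were called. The siYAP call was lost in 4 of the 6 fits without a library and the siTAZ call in that without siTAZ library 24. siControl and Control differed by -0.01 (95% interval -0.17 to 0.16, adjusted p = 1.0). No member was called between these controls by edgeR, DESeq2 or limma-voom, and none had an unadjusted p below 0.05, where 0% of all genes were called by edgeR.

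The fall of UAP1 with both pools exceeded that with either. siYAP+TAZ lay -0.43 from siYAP (SE 0.08, adjusted p = 0.00303) and -0.42 from siTAZ (SE 0.08, adjusted p = 0.00415) on the log2 scale, and both calls held under the 9 alternatives and without each library. UAP1 was 1 of 5 members called in each, where 5.13% and 5.44% of all genes were called. siYAP and siTAZ differed by 0.01 (95% interval -0.15 to 0.17, adjusted p = 0.976). The interaction, which is the value in siYAP+TAZ beyond the sum of the single knockdowns, was -0.04 (95% interval -0.27 to 0.19, adjusted p = 0.986). The silencing was unequal, with WWTR1 at 65.25% of the siControl mean in siYAP+TAZ and 29.55% in siTAZ. YAP1 was at 48.11% in siYAP+TAZ and 35.0% in siYAP, with overlapping libraries. The sum of the single knockdowns is therefore not a matched reference for siYAP+TAZ. Within runs of library numbers UAP1 in siYAP+TAZ differed from siControl by -0.80, -0.71 and -0.90 on the log2 scale. Within the same runs it was -0.31, -0.33 and -0.47 for siYAP and -0.28, -0.35 and -0.52 for siTAZ. For the interaction and for siYAP against siTAZ no member was called by edgeR, DESeq2 or limma-voom, and none had an unadjusted p below 0.05, where 0.0106% and 0.642% of all genes were called.

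**Figure D3:**
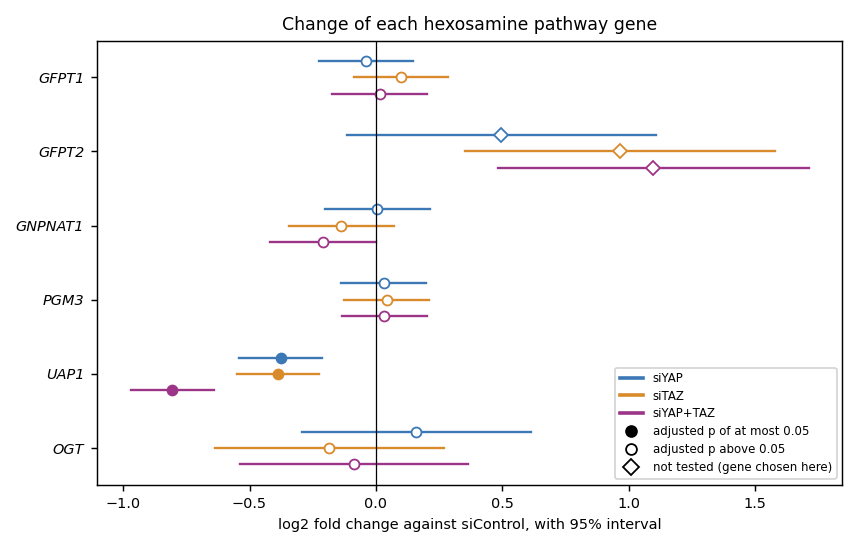
Log2 fold change against siControl (horizontal axis) of each gene in siYAP, siTAZ and siYAP+TAZ, with 95% intervals from the edgeR fit of 15 libraries. Filled circles passed an adjusted p of 0.05 and open circles did not. Open diamonds mark GFPT2, which was chosen on siYAP+TAZ against siControl and not tested, and its intervals are a description. UAP1 has the sole filled circles, at -0.38, -0.39 and -0.81.

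Per length, UAP1 was the most abundant of the 6 transcripts in siControl, at 67.0 ± 6.34 RPKM (SD, n = 3). OGT followed with 38.4 ± 4.59, then GFPT2, GNPNAT1 with 15.5 ± 1.29, GFPT1 and PGM3 with 6.02 ± 0.17. GFPT2 and GNPNAT1 were neighbours that did not differ beyond their spread. In siYAP+TAZ UAP1 stood at 38.3 ± 2.22, OGT at 36.2 ± 0.86 and GFPT2 at 37.4 ± 5.23. With exon-union lengths the same means were 29.5 for UAP1, 20.0 for OGT and 24.0 for GFPT2, so their nearness depends on the length used. UAP1 per GFPT2 was 3.90, 4.28 and 3.46 in siControl and 1.06, 1.12 and 0.914 in siYAP+TAZ. With exon-union lengths GFPT2 (11.2) and GNPNAT1 (14.9) exchanged places in siControl, and GFPT1 (10.2) stayed below both. PGM3, with many annotated exons outside its canonical transcript, was at 1.66.

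OGT, the O-GlcNAc transferase (chrX:71533087-71575892, plus strand), was not called in any comparison, and its SE in siYAP+TAZ against siControl (0.21) was the largest of the 5 tested genes. It had 4892, 5541 and 4362 normalized counts in siControl, 4735, 4522 and 4680 in siYAP+TAZ, 6513, 5610 and 4408 in siYAP and 5087, 4098 and 3827 in siTAZ. Control spanned 3816 to 7242, with the lowest value in library 26. The log2 fold changes against siControl were -0.09 in siYAP+TAZ (95% interval -0.54 to 0.37), 0.16 in siYAP (-0.29 to 0.61) and -0.18 in siTAZ (-0.64 to 0.27), with adjusted p-values of 0.828, 0.848 and 0.741. These intervals are about as wide as the change seen in UAP1, so changes of moderate size were not detectable in OGT. Without Control library 26 OGT was called lower against Control in siTAZ (-0.64, adjusted p = 0.0282) and in siYAP+TAZ (-0.54, adjusted p = 0.0241), against -0.41 and -0.31 with it. Within runs siYAP+TAZ against Control was -0.61, -0.47 and 0.29, so the third run went the other way.

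Genes that recycle, spend or feed UDP-GlcNAc were taken from 8 lists, of which 81 genes were in the table. In siYAP+TAZ against siControl 17 of the 81 were called, where 18.4% of all genes were called, so the lists together were near the background. In siTAZ 5 of the 81 were called, where 2.03% of all genes were called, and the count was 0 without siControl library 17 or siTAZ library 24, where 118 and 68 of all genes were called in place of 383. In siYAP, where 0.933% of all genes were called by edgeR, none of the 81 was called by edgeR, 3 by DESeq2 and 1 by limma-voom, with 11 at an unadjusted p below 0.05. Genes given below beside those of the naming rule were added after their values were seen.

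The hyaluronan genes, which spend UDP-GlcNAc on a matrix polymer at the plasma membrane, included called genes of both signs. Of 10 measured, 3 rose, 1 fell and 6 were not called in siYAP+TAZ against siControl, where 18.4% of all genes were called, with a median log2 fold change of 0.15 beside -0.0048 for all genes tested, and HAS1 was not analysed here. HAS2, a hyaluronan synthase, had 675, 687 and 627 normalized counts in siControl and 341, 361 and 282 in siYAP+TAZ. All siYAP+TAZ libraries were below all siControl libraries, with a log2 fold change of -1.02 (SE 0.28, adjusted p = 0.0221). HAS2 stood at 372, 330 and 248 in siYAP and 430, 182 and 224 in siTAZ, with log2 fold changes of -1.06 (adjusted p = 0.105) and -1.23 (adjusted p = 0.0456). The siYAP+TAZ call was lost without siControl library 17 or 22 or siYAP+TAZ library 20 or 30 (adjusted p 0.0569 to 0.0865).

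HAS3, a second synthase with few reads, had 29.8, 41.6 and 16.1 normalized counts in siControl and 101, 126 and 78.9 in siYAP+TAZ. Its log2 fold change was 1.78 (SE 0.28, adjusted p = 0.000199), and it was 0.80 in siYAP (adjusted p = 0.226) and 0.67 in siTAZ (adjusted p = 0.261), neither of which passed in edgeR. In siYAP none of the 10 hyaluronan genes was called by edgeR, 2 by DESeq2 and 1 by limma-voom, where these tools called 176, 400 and 166 of 18858 genes, with 3 of the 10 at an unadjusted p below 0.05. CEMIP, which takes part in hyaluronan breakdown, rose from 1048, 1017 and 836 to 1725, 1937 and 1753, a log2 fold change of 0.90 (SE 0.17, adjusted p = 0.00214). HYAL3, a hyaluronidase family member, rose by 0.60 (adjusted p = 0.00653), a call that was not followed in the fits without a library. CD44, the hyaluronan receptor, was among the 6 that were not called.

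**Figure D4:**
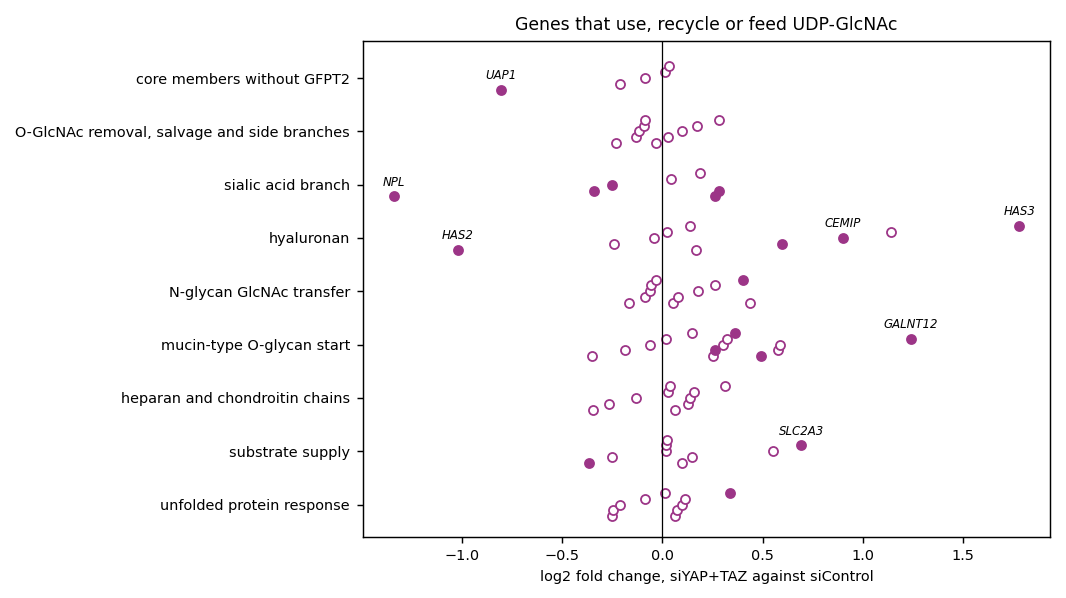
Log2 fold change in siYAP+TAZ against siControl (horizontal axis) of each measured gene of the 8 lists and of the 5 tested pathway members (rows). Filled points passed an adjusted p of 0.05, open points did not, points are spread vertically for legibility, and called genes with an absolute value of at least 0.65 are named. HAS3 at 1.78 and GALNT12 at 1.24 lie farthest to the right, and NPL at -1.34 and HAS2 at -1.02 farthest to the left.

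Of the 14 genes that start or extend mucin-type O-glycans, which are built on UDP-GalNAc, 4 rose in siYAP+TAZ and none fell, where 18.4% of all genes were called, with a median of 0.28. GALNT10, a GalNAc transferase, rose from 4218, 4320 and 3941 normalized counts to 5968, 6307 and 5295, a log2 fold change of 0.49 (SE 0.08, adjusted p = 0.000161). In siTAZ, where 2.03% of all genes were called, 2 of the 14 rose, GALNT10 by 0.37 (adjusted p = 0.0126) and GALNT3, another GalNAc transferase, by 0.61 (adjusted p = 0.00976). GALNT3 was at 0.32 in siYAP+TAZ (adjusted p = 0.0598). GALNT12 rose by 1.24 (SE 0.24, adjusted p = 0.00133) from 42.5, 36.1 and 40.8 to 71.3, 83.8 and 125 counts. GALNT5, at 0.58 (SE 0.27, adjusted p = 0.181), did not pass, but was called with the run of library numbers as a block (adjusted p = 0.000135). GALNT6 and C1GALT1C1, the chaperone of the core 1 enzyme, rose by 0.36 and 0.26 (adjusted p = 0.00181 and 0.0455). Neither call was followed in the fits without a library.

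Of the 7 genes that make, activate or remove sialic acid, a sugar derived from UDP-GlcNAc, 2 rose and 3 fell in siYAP+TAZ, where 18.4% of all genes were called, with a median of 0.05. Against the untransfected Control, where 19.4% of all genes were called, 2 of the 7 rose and none of the falls was called (NANP adjusted p = 0.0618, NPL adjusted p = 0.237). GNE, which takes UDP-GlcNAc into this branch, rose by 0.26 (adjusted p = 0.0373) and the sialidase NEU1 by 0.28 (SE 0.07, adjusted p = 0.0122). NANS and NANP, the next enzymes of the branch, were lower, with log2 fold changes of -0.25 (adjusted p = 0.0421) and -0.34 (SE 0.10, adjusted p = 0.0181). NPL, a sialic acid lyase, had a log2 fold change of -1.34 (SE 0.43, adjusted p = 0.0382) on 11.9, 16.6 and 20.4 counts in siControl and 7.13, 7.52 and 4.59 in siYAP+TAZ, and DESeq2 (0.0633) and limma-voom (0.0601) did not call it. Leaving out a library ended the call of NPL in 5 of 6 fits (adjusted p 0.0688 to 0.143), that of NANP in 3 (without siControl library 17 or 22 or siYAP+TAZ library 20, 0.0639 to 0.0854) and that of NEU1 in 1 (without siControl library 22, 0.0766). GNE and NANS, with adjusted p-values nearer to 0.05 than those of NANP and NEU1, were not followed in these fits. NANP was also lower in siTAZ (-0.41, adjusted p = 0.0309).

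Of the 10 genes for O-GlcNAc removal, salvage and side branches none was called in siYAP+TAZ by edgeR, DESeq2 or limma-voom, where 18.4% of all genes were called by edgeR, with 1 at an unadjusted p below 0.05 and a median of -0.06. AMDHD2, which removes the acetyl group from GlcNAc-6-phosphate, was at -0.23 (95% interval -0.54 to 0.08) and NAGK, the salvage kinase for GlcNAc, at 0.17 (95% interval 0.01 to 0.33, adjusted p = 0.134). Of 10 genes of heparan and chondroitin chains none was called by edgeR (18.4% of all genes) or limma-voom and 1 by DESeq2, with 1 at an unadjusted p below 0.05. CHSY3 and CHSY1, which extend chondroitin chains, were at -0.27 (adjusted p = 0.243) and 0.16 (adjusted p = 0.0903). CHSY1 was called in 5 of 9 alternatives with every library (DESeq2, library size alone, both filters and the block), where the adjusted p ranged from 0.0354 to 0.114.

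Of 11 genes for N-glycan GlcNAc transfer 1 rose in siYAP+TAZ, of 9 that supply glucose or glutamine 1 rose and 1 fell, and of 10 of the unfolded protein response 1 rose, where 18.4% of all genes were called. MGAT5B, a branching GlcNAc transferase, had a log2 fold change of 0.40 (SE 0.11, adjusted p = 0.0138) in siYAP+TAZ and of 0.50 (adjusted p = 0.0195) in siTAZ. Its siYAP+TAZ call was lost without siControl library 17 (0.0604) or 22 (0.0826). SLC35D2, a nucleotide-sugar transporter, was at 0.44 (SE 0.19, adjusted p = 0.128), and was called with only the groups compared in the fit (adjusted p = 0.0495) and against Control (log2 fold change 0.61, adjusted p = 0.0361). Among the supply genes SLC2A3, a glucose transporter, rose from 460, 465 and 401 normalized counts to 654, 696 and 795 (log2 fold change 0.69, SE 0.10, adjusted p = 6.73e-05). SLC1A5, a glutamine transporter, was lower (-0.37, adjusted p = 0.0469), a call that was not followed in the fits without a library. SLC38A2, another glutamine transporter, was at 0.55 (SE 0.23, adjusted p = 0.12). It was called by DESeq2 (adjusted p = 0.0281) and with the run of library numbers as a block (8.11e-05). In the unfolded protein response, which can raise transcripts of this pathway, EDEM1 rose by 0.34 (SE 0.09, adjusted p = 0.0107), a call lost without siControl library 27 (0.0621), and ATF4 was at -0.25 (SE 0.10, adjusted p = 0.0996), called with the block (0.000769) and against Control (-0.32, adjusted p = 0.0369). Against Control, where 19.4% of all genes were called, 3 of the 11 N-glycan genes rose, 1 supply gene rose and 1 fell, and 2 genes of the unfolded protein response rose and 1 fell.

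The genes with the profile nearest to that of GFPT2 were sought by the root mean square difference of log2 CPM, each gene centred on its mean over the 15 libraries, among the 10639 other genes that averaged 100 normalized counts or more. Those reported here were PTPRU (0.14), a receptor tyrosine phosphatase, TOX2 (0.142), an HMG-box factor, the long noncoding APCDD1L-DT (0.146), and RASSF4 (0.159), a Ras-association domain protein. The median over the 10639 genes was 0.588, and the other pathway genes stood at 0.516 (GFPT1) to 0.816 (UAP1). PTPRU stood at 546 ± 105 normalized counts in siControl and 1284 ± 313 in siYAP+TAZ, and RASSF4 at 377 ± 68.5 and 781 ± 223 (SD, n = 3). The 15 libraries share the run of library numbers as well as the groups, and the raised library 26 to 30 of siControl, siYAP and siYAP+TAZ is part of the likeness. In Control, library 26 was raised for GFPT2, PTPRU, TOX2 and APCDD1L-DT, while RASSF4 was level in libraries 21 and 26.

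**Figure D5:**
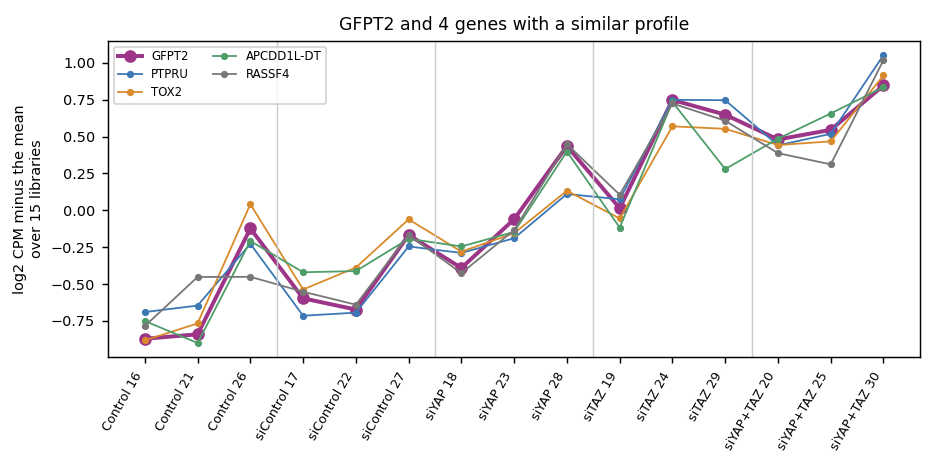
Log2 CPM of GFPT2 and of 4 genes with a near profile (vertical axis, each minus its mean over the 15 libraries) in each library (horizontal axis, grouped by condition with grey dividers). Lines join libraries for legibility and carry no order. All 5 genes lie below 0.1 in Control and siControl and above 0.3 in siYAP+TAZ.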

How the data were processed

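The measurements are RNA-seq of MDA-MB-231 cells, with samples put into 5 groups of 3 by their names. The authors selected polyadenylated RNA, read it by single-end sequencing, trimmed the reads with cutadapt, aligned them with STAR 2.4.2a to GRCh38 with GENCODE 34 in the UTAP pipeline, and deposited raw counts per gene made by STAR. Whether strand was used is not given in the sources used here. Normalized and rlog columns, and the authors' own fold changes and p-values from DESeq2, were also deposited and were not used. The members, gene lists and comparisons were chosen with earlier results of these data known.

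TMM factors were computed for the counts of all 18858 genes, and the test was the quasi-likelihood method of edgeR 4.0.16 (R 4.3.3, robust, all 15 libraries, one coefficient per group), with Benjamini-Hochberg adjustment over all genes. A gene was called at an adjusted p of at most 0.05. A second rule also asked for a log2 fold change of 1 or more in either direction, and of the 5 tested members none met it in any comparison. Intervals are 95% intervals of the fit. The code was tested on simulated data. Total counts per library ranged from 18696737 to 30107312, and genes with few reads carry large errors. The text names the 6 members, in each list the genes past both rules in siYAP+TAZ against siControl and the 2 with the largest absolute fold change among those averaging 100 normalized counts or more, 4 of the 5 genes most like GFPT2 (prior count 2; the other is not reported here), and the siRNA targets. Alternatives were DESeq2 1.42.0, limma-voom (limma 3.58.1), DESeq2 size factors, library size alone, 2 filters (10 or more reads in 3 or more libraries, and filterByExpr), no robustness, the run of library numbers as a block, the compared groups alone, and leaving out each library. Coordinates, lengths and overlaps came from GENCODE 44 on GRCh38, promoter sequences from RefSeq (GRCh38.p14), and siRNA sequences from the study's supplement.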

Additional observations from a re-analysis of the deposited data

How the results depend on the processing

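UAP1 in siYAP+TAZ against siControl, Control, siYAP and siTAZ kept its direction and its call under every alternative tried. The number of members called in siYAP+TAZ against siControl was 1 and ranged from 1 to 2 without a library, in siYAP against siControl 0 in each (1 with all libraries), in siTAZ against siControl from 0 to 1, in siYAP against Control from 0 to 1, in siTAZ against Control from 0 to 3, and in siYAP+TAZ against Control from 1 to 2. Over all genes the fits without a library called, in the same order, 2502 to 2925, 27 to 137, 68 to 901, 77 to 238, 120 to 1287 and 2583 to 3654. With the compared groups alone the number of members was 0 in siYAP against siControl, siYAP against Control and siTAZ against Control. There 140, 76 and 131 of all genes were called, in place of 176, 276 and 642. In siTAZ against Control the number of members was 2 (UAP1 and GFPT2) with DESeq2, limma-voom, library size alone, either filter and without robustness. Over all genes these settings called 1107, 535, 776, 786 (10 reads in 3 libraries), 805 (filterByExpr) and 645, in place of 642. The filters leave fewer genes to adjust over, and the cause of the others was not tested.

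For the 81 list genes, 17 called in siYAP+TAZ against siControl became 8 to 14 without a library, while calls over all genes went from 3464 to between 2502 and 2925. In siTAZ 5 became 0 to 7 without a library (all genes 383, then 68 to 901) and 2 with the compared groups alone. In siYAP 0 became 3 with DESeq2, 1 with limma-voom, 1 without robustness and 1 with the compared groups alone. The 5 genes most like GFPT2 were the same with a prior count of 0.5 and with genes averaging 20 normalized counts or more.

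The run of library numbers as a block is a pairing the labels do not state. Deviations of libraries of other groups in the same run correlated between -0.06 and 0.73 (30 pairs, median 0.47), and 11 of 15 libraries correlated best with their own run. Those of other runs correlated between -0.66 and 0.53 (60 pairs, median -0.40), so the ranges overlapped. Deviations were taken from group means, so positive values within runs bring negative ones between runs, and the latter are no separate evidence. With this replicate block 2 members were called in siYAP+TAZ against siControl and against siYAP (UAP1 and GNPNAT1) and 2 in siTAZ against Control (UAP1 and GFPT2). The list genes called against siControl were 28 for siYAP+TAZ, 13 for siTAZ and 8 for siYAP, and over all genes 5389, 1942 and 1151 were called in place of 3464, 383 and 176. In siYAP+TAZ against siYAP the block called 2758 of all genes in place of 968, and in siTAZ against Control 2608 in place of 642.

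Signs turned for values near 0 that were not called. With library size alone these were GFPT1 in siYAP against siControl (0.0082) and PGM3 in siYAP+TAZ against siYAP (-0.0036), in siYAP+TAZ against siTAZ (0.018) and in siYAP against siTAZ (0.022). PGM3 in siYAP+TAZ against siYAP was also -0.0042 with 10 reads in 3 libraries, -0.0052 with filterByExpr and -0.0032 with the compared groups alone. Ranges without a library were, for GFPT1, -0.067 to 0.070 in siYAP+TAZ against siControl, -0.12 to 0.016 in siYAP against siControl and -0.12 to 0.037 for the interaction. For GNPNAT1 they were -0.058 to 0.071 in siYAP against siControl, -0.079 to 0.042 in siTAZ against Control, -0.22 to 0.0079 in siYAP+TAZ against Control, -0.17 to 0.050 in siYAP+TAZ against siTAZ and -0.19 to 0.030 for the interaction. For PGM3 they were -0.020 to 0.097 in siYAP+TAZ against siControl, -0.015 to 0.081 in siYAP against siControl, -0.064 to 0.066 in siYAP+TAZ against siYAP, -0.061 to 0.053 in siYAP+TAZ against siTAZ, -0.056 to 0.038 in siYAP against siTAZ and -0.11 to 0.022 for the interaction. For UAP1 they were -0.086 to 0.057 in siControl against Control, -0.017 to 0.031 in siYAP against siTAZ and -0.12 to 0.0059 for the interaction. For OGT they were -0.17 to 0.0055 in siYAP+TAZ against siControl, -0.29 to 0.13 in siYAP against Control and -0.20 to 0.075 for the interaction. GFPT2, not tested in these comparisons, ran from -0.066 to 0.28 in siYAP+TAZ against siTAZ and from -0.062 to 0.39 in siControl against Control. Depth limits the values of HAS3, GALNT12 and NPL, which rest on few reads.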
